A study of Rattus norvegicus with 6 samples.

Results

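The carnitine shuttle was followed through 4 genes, Cpt1a, Cpt2, Slc25a20 and Crot, in liver RNA of male Sprague Dawley rats. Members were all probe sets whose only gene symbol in the annotation of the array is one of these names, a rule that uses no measured value. They came to 5 of the 8740 probe sets that remained after the array controls were set aside. Cpt1a is read by L07736_at, Cpt2 by J05470_at, Slc25a20 by rc_AA800120_at, and Crot by both J02844_s_at and U26033_at. All 5 lay above the filter on dim probe sets, which kept 5244 probe sets for the test.

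The study set a diet given to induce nonalcoholic steatohepatitis (NASH) against a low-fat diet. The 3 samples titled Control came from rats on a liquid diet with 5% corn oil that supplied 187 kcal per kg of metabolic body mass a day. The 3 samples titled NASH came from rats on 70% corn oil and 220 kcal on that basis. Both diets were infused as total enteral nutrition for 3 weeks, so all 6 samples share that feeding route, while fat share and energy supply changed together. No age, and no statement that each sample is a separate animal, is given in the sources used here, so the p-values rest on sample-to-sample spread that could be technical only.

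Long-chain fatty acids cannot cross the inner mitochondrial membrane as acyl-CoA. Cpt1a, the liver form of carnitine palmitoyltransferase 1 on the outer membrane, exchanges the CoA for carnitine and is the regulated entry step of beta-oxidation, blocked by malonyl-CoA. Slc25a20, the carnitine-acylcarnitine translocase, carries the product inward in exchange for free carnitine, and Cpt2 on the matrix side restores the acyl-CoA. Crot, carnitine octanoyltransferase, sits in peroxisomes and hands medium-chain products of peroxisomal chain shortening to carnitine for export to mitochondria. Malonyl-CoA is the first committed product of fatty acid synthesis, which ties the shuttle to the fed state of the liver.

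The promoter windows of the 4 genes are shown because these genes are read side by side below. Each runs 5′ to 3′ over 300 bases, 250 before and 50 after the start of the gene in the RefSeq annotation of build GRCr8, and all 4 members matched the table by symbol. Capitals mark GC boxes, the letters GGGCGG on either strand.
Cpt1a, chr1:209995910-209996209, + strand: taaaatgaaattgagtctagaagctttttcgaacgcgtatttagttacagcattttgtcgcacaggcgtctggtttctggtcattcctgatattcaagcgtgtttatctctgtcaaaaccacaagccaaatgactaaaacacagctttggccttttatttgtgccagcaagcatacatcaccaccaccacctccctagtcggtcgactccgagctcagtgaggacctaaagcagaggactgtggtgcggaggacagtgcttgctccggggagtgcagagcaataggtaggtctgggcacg
Cpt2, chr5:127910769-127911068, - strand: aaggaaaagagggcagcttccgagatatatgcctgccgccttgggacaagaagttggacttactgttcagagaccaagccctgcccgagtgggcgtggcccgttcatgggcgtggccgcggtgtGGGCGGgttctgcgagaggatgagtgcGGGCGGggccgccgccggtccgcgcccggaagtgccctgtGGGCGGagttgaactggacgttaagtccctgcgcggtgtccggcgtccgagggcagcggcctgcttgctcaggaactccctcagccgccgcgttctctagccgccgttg
Slc25a20, chr8:118243323-118243622, + strand: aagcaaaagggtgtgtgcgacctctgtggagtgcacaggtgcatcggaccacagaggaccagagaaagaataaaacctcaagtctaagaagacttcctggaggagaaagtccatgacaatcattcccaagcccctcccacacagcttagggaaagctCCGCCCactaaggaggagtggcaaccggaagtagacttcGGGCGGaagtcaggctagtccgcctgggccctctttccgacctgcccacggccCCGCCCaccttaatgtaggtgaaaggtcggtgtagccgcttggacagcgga
Crot, chr4:26052874-26053173, + strand: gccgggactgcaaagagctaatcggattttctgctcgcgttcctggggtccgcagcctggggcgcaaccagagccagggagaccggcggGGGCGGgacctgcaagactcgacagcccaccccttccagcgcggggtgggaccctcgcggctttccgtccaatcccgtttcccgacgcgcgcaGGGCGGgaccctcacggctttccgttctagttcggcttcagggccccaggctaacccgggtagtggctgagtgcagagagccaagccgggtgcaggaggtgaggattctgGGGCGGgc

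The windows of Cpt2, Slc25a20 and Crot held 3 GC boxes each and that of Cpt1a held 0. Among all 33469 windows of the same length in the table, 33.1% held this motif on at least 1 strand. Cpt2 and Crot were rich in G and C, with 66.7% and 68.0% of bases and 31 and 27 CpG sites, against medians of 51.7% and 7 over all windows. Slc25a20 had 56.7% and 13 CpG sites, and Cpt1a 48.3% and 12. The letters AGGTCA, the core element of nuclear receptors such as PPARalpha, were found on neither strand of the 4 windows (16.2% of all windows hold them). Their direct repeat with 1 base between, AGGTCANAGGTCA, was likewise not found (0.0538% of all windows), nor was TATAAA (14.2%). Any match to the repeat would also count for AGGTCA. These counts describe the letters of the windows only.

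The 6 arrays were not alike in ways that bear on the values below. Trimmed mean signals of the deposited table ran from 73.6 in NASH 3 to 117 in Control 1. When weights were estimated from the data, Control 2 (0.454), Control 3 (0.488) and NASH 2 (0.777) got less than the other arrays (1.46 to 2.09). Control 3 had an actin 3′ to 5′ signal ratio of 5.07 against 2.15 to 2.93 elsewhere. NASH 2 carried brown fat and skeletal muscle transcripts. The summed quantile-normalized signal of 7 fat markers was 3911 there against 409 to 535 in the other 5 arrays. For 6 muscle markers it was 2223 against 55.2 to 102. Not every marker followed. As log2 signal, the muscle marker Myh4 was lowest in NASH 2 (3.30 against 3.81 to 4.72). The fat marker Lep differed little (8.57 against 7.94 to 8.27). Summed signals of 9 hepatocyte markers lay between 37160 and 39937 in Control and between 36891 and 38518 in NASH. No marker of these lists was at 0 in any array. Such sums weigh the brightest markers most. Quantile normalization holds the brightest probe sets near the same values in every array, so the hepatocyte sum cannot show an equal hepatocyte share. For Alb (rc_AA945321_at), deposited signals of 7348 in Control 1 and 4707 in NASH 3 became log2 levels of 12.51 and 12.47. By log2 difference, 4 of the 9 hepatocyte markers were higher and 5 lower in NASH. NASH values lay below all Control values for Ambp (-0.27) and Cps1 (-0.26) and above them for Apoc3 (0.076). The shares of all tested probe sets were 7.76% and 6.54%. Otc differed by -0.70. Ambp, Cps1 and Otc were each lowest in NASH 2, where Otc read 9.13 against 9.58 to 10.62 elsewhere. In bulk tissue, fewer cells of a type and less RNA per cell cannot be told apart.

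All 5 shuttle probe sets had higher means in NASH, and none passed the test across the array. Levels are log2 of the quantile-normalized signal plus an offset, and a difference is the NASH mean minus the Control mean on that scale. The 5 differences ran from 0.67 (Cpt2) to 2.29 (Crot J02844_s_at), with a median of 0.91, where the median over all 5244 probe sets tested was -0.02 and 47.1% of them were higher in NASH. Limma called 0 of the 5 at a Benjamini-Hochberg adjusted p under 0.05, against 7 probe sets or 0.133% of all tested. At an unadjusted p under 0.05 it held 3 of the 5, those of Slc25a20 and Crot, against 3.81% of all probe sets on the higher side. The 3 NASH values lay above the 3 Control values for the same 3 probe sets, against 6.54% of those tested.

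**Figure D1:**
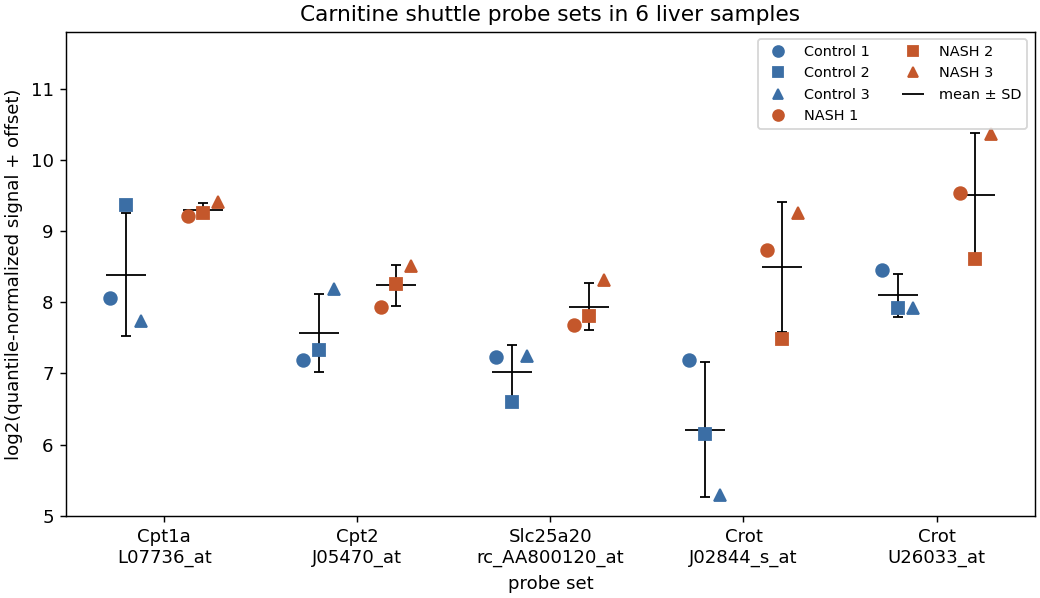
Log2 signal of the 5 carnitine shuttle probe sets (horizontal axis) in each of 6 liver samples, quantile-normalized with an offset, with Control in blue, NASH in orange, the marker shape giving the replicate number, and black lines giving mean and SD of 3 samples. The groups stand apart for Slc25a20 and both Crot probe sets, while Control 2 (9.38) reaches the NASH values of Cpt1a and Control 3 (8.19) those of Cpt2.

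Cpt1a, the entry step, was nearly even across the NASH livers and uneven across the Control livers. Its log2 level was 8.06 in Control 1, 9.38 in Control 2 and 7.74 in Control 3, and 9.21, 9.26 and 9.41 in NASH 1, 2 and 3. The groups overlapped through Control 2 alone, which lay above NASH 1 and NASH 2, and the other Control values lay more than 1 log2 unit below every NASH value. The SD was 0.87 in Control and 0.10 in NASH (n = 3 each). In the deposited signals the same order of groups appeared, 326, 584 and 218 in Control and 694, 553 and 532 in NASH.

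For Cpt1a the difference was 0.90 ± 0.39 (standard error, n = 3 per group), or 1.87-fold, with a 95% confidence interval from -0.0017 to 1.81 (limma adjusted p = 0.619). The unadjusted p was 0.0503 by limma and 0.3 by an exact two-sided permutation test over the 6 samples, for which 0.1 is the smallest that 3 against 3 samples allow. Without Control 2 the difference was 1.40 (limma adjusted p = 0.0755), and without Control 3, the lowest sample, it was 0.58 (adjusted p = 0.687). Control 2 is also the sample in which Sds, a serine dehydratase of amino acid breakdown picked here after its values were seen, stood at 10.84 (J03863_at) against 4.07 to 6.45 elsewhere. The part of that sample's state in the Cpt1a level was not tested.

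Slc25a20, the translocase, had the most even separation of the mitochondrial members. Log2 levels were 7.23, 6.59 and 7.24 in Control 1, 2 and 3 and 7.69, 7.81 and 8.31 in NASH 1, 2 and 3. The groups did not overlap, and the lowest NASH sample lay 0.44 above the highest Control sample. Deposited signals were 179, 91.0 and 153 in Control and 231, 217 and 249 in NASH, also without overlap. The difference was 0.91 ± 0.27, or 1.88-fold (95% interval 0.29 to 1.53, limma adjusted p = 0.452, exact permutation p = 0.1, the smallest possible). Left-out arrays moved it between 0.71 (without Control 2) and 1.03 (without NASH 1).

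Cpt2, which rebuilds acyl-CoA inside the matrix, had the smallest difference. Log2 levels were 7.19, 7.32 and 8.19 in Control and 7.94, 8.26 and 8.51 in NASH. The groups overlapped because Control 3 lay above NASH 1, and in the deposited signals Control 3 (296) was the highest of all 6, above 274 to 290 in NASH. The difference was 0.67 ± 0.31, or 1.59-fold (95% interval -0.04 to 1.38, limma adjusted p = 0.619, exact permutation p = 0.2). It was 0.47 without Control 1 (adjusted p = 0.657) and 0.98 without Control 3 (0.361), the array with the high actin ratio, whose part in the Cpt2 level was not tested.

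Crot, the peroxisomal member, had the largest differences of the 5 probe sets. U26033_at, the brighter probe set, read 8.45, 7.92 and 7.92 in Control and 9.54, 8.61 and 10.37 in NASH. NASH 2 lay only 0.16 above Control 1, whereas NASH 1 and NASH 3 were more than 1 log2 unit above every Control sample. In the deposited signals this probe set overlapped, with 362 in NASH 2 against 430 in Control 1, and 856 and 1023 in NASH 1 and NASH 3. The difference was 1.41 ± 0.41, or 2.66-fold (95% interval 0.45 to 2.37, limma adjusted p = 0.452). With 1 array left out it lay between 0.98 (without NASH 3) and 1.88 (without NASH 2).

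J02844_s_at, whose suffix marks probes that several transcripts may share in this array's naming, read 7.18, 6.14 and 5.29 in Control and 8.74, 7.48 and 9.26 in NASH. Its groups did not overlap, and NASH 2 was again the lowest NASH sample. In the deposited signals NASH 2 and Control 1 were nearly equal, at 174.3 and 173.4, while NASH 1 and NASH 3 stood at 486 and 475. The difference was 2.29 ± 0.57, or 4.88-fold (95% interval 0.97 to 3.60, limma adjusted p = 0.388), and 14 of the 5244 probe sets tested had a larger one. Exact permutation p was 0.1 for both Crot probe sets, the smallest possible.

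The size of the Crot difference depended on the probe set. Within an array the brighter set exceeded the other by 1.27, 1.78 and 2.63 in Control 1, 2 and 3 and by 0.81, 1.13 and 1.11 in NASH 1, 2 and 3. This gap was 0.88 smaller in NASH on average (exact permutation p = 0.1, two-sided). Control 3, with the high actin ratio, had the widest gap and also the lowest J02844_s_at level. Without Control 3 the 2 differences were 1.82 for J02844_s_at and 1.32 for U26033_at.

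**Figure D2:**
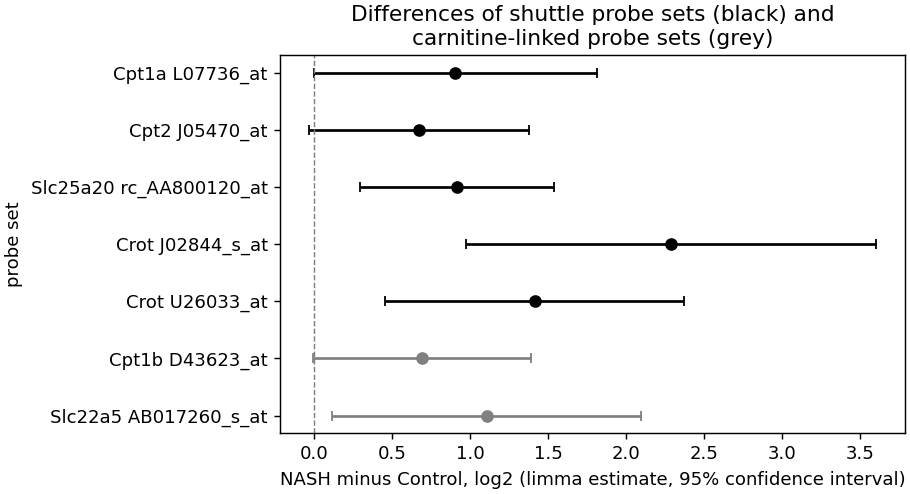
Limma estimates of NASH minus Control on the log2 scale (horizontal axis) with 95% confidence intervals, for the 5 shuttle probe sets in black and the measured probe sets of carnitine-linked genes in grey. The intervals of Slc25a20 and both Crot probe sets start above 0 (0.29, 0.97 and 0.45), those of Cpt1a and Cpt2 reach below it, and none of the p-values passed adjustment over 5244 probe sets.

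The members were compared pair by pair, as the change from Control to NASH in their log2 ratio within each sample, using the brighter probe set of Crot. The 6 ratios changed by between -0.74 (Cpt2 over Crot) and 0.23 (Cpt1a over Cpt2), with exact permutation p-values from 0.3 to 1, and from 0.84 to 1 after Benjamini-Hochberg adjustment over the 6 pairs. These intervals were wide: for Cpt1a over Crot the change was -0.51 with a 95% interval from -2.59 to 1.57. Unequal changes of the 4 genes were therefore not detectable with 3 samples a group, and equal ones were not shown.

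After quantile normalization the 3 mitochondrial members shared their order of the NASH samples, lowest in NASH 1 and highest in NASH 3. Their orders of the Control samples differed. The deposited signals did not share that NASH order. Cpt1a fell there from 694 in NASH 1 to 532 in NASH 3, and Slc25a20 was lowest in NASH 2 (217). Both Crot probe sets had NASH 2 lowest and NASH 3 highest in NASH, and Control 1 highest in Control. Control 3 was lowest for J02844_s_at, but for U26033_at it was nearly level with Control 2 (7.917 and 7.921). In the deposited signals of U26033_at Control 2 (212) was below Control 3 (246). For J02844_s_at the deposited signal of NASH 1 (486) was above that of NASH 3 (475). NASH 3 had the highest log2 level of all 5 probe sets after quantile normalization. In the deposited signals it was highest only for Slc25a20 and Crot U26033_at, NASH 1 was highest for Cpt1a and Crot J02844_s_at, and Control 3 for Cpt2. On the log2 scale the lowest sample was Control 3 for Cpt1a and Crot J02844_s_at, Control 2 for Slc25a20 and Control 1 for Cpt2. For Crot U26033_at Control 3 and Control 2 were nearly level at the bottom. Averaged over the 4 genes, centred log2 levels lay from -0.53 to -0.45 in Control and were 0.34, 0.23 and 0.89 in NASH 1, 2 and 3.

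The field headed Hybridize Date in the instrument record, called the date record here, was filled in for Control 1, Control 3, NASH 1 and NASH 2. It was blank for Control 2 and NASH 3. Cpt1a differed by 1.34 among the 4 arrays with a filled record and by 0.03 between NASH 3 and Control 2. The other members went the opposite way, with larger values in the blank pair: 0.41 and 1.19 for Cpt2, 0.51 and 1.72 for Slc25a20, 0.89 and 2.45 for Crot U26033_at, and 1.87 and 3.11 for Crot J02844_s_at. All 10 values were above 0. Among the 4 filled records the recorded times separated the diets, so that instrument run and diet cannot be told apart there.

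**Figure D3:**
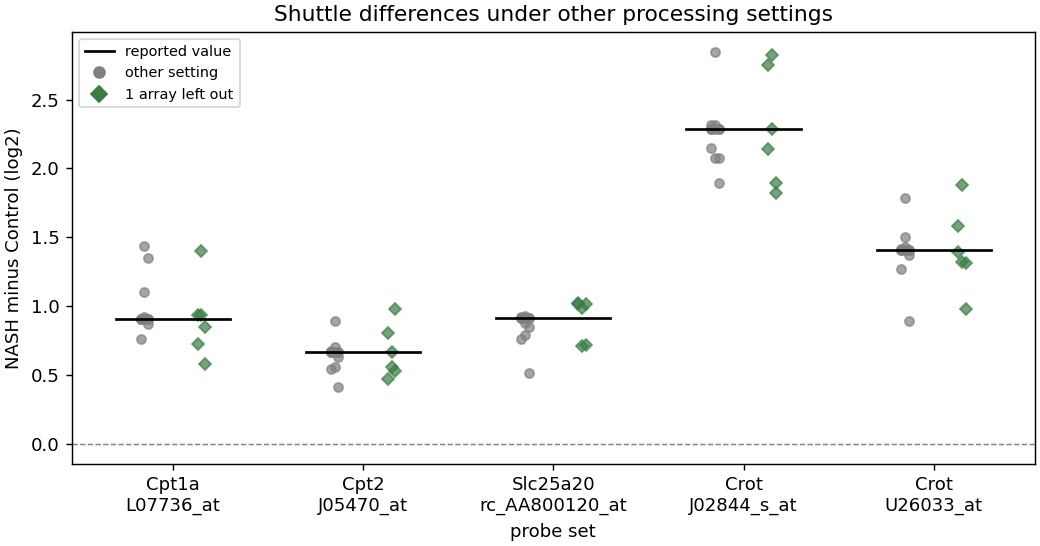
NASH minus Control on the log2 scale (vertical axis) for each shuttle probe set (horizontal axis), with the reported value as a black line, other processing settings as grey circles and fits with 1 array left out as green diamonds. All values lie above 0, from 0.42 for Cpt2 to 2.85 for Crot J02844_s_at, and those of Cpt1a spread from 0.58 to 1.44. Settings of the filter, variance prior and blocks repeat the reported value.

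Genes around the shuttle were read from lists picked with earlier results of these data known, each gene by its brightest probe set. The counts below carry that limit. Of 9 genes of carnitine supply and related acyltransferases, 2 were measured, both higher in NASH, with 0 passing the limma test at an adjusted p under 0.05. Slc22a5, the sodium-dependent carnitine transporter of the plasma membrane (OCTN2), read 6.18, 5.66 and 6.28 in Control and 6.84, 6.45 and 8.15 in NASH. Its groups did not overlap (6.54% of all tested on the higher side), and the difference was 1.10 ± 0.43 (limma adjusted p = 0.582). NASH 3 stood well above the other NASH samples, and without it the difference was 0.60.

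Cpt1b, the muscle form of carnitine palmitoyltransferase 1, read 5.53, 5.51 and 5.70 in Control and 5.69, 6.88 and 6.24 in NASH with D43623_at (difference 0.69, or 0.39 without NASH 2, limma adjusted p = 0.619). Its dimmer probe set D43623_g_at lay below the filter and read 2.36 to 2.95 in Control and 2.53, 7.14 and 4.54 in NASH. The highest sample of both was NASH 2, where the muscle-type binding protein Fabp3 stood at 8.71 against 3.26 to 4.19 elsewhere. The summed signal of the fat markers was 3911 in NASH 2 and that of the muscle markers 2223, as given above, and their part in the Cpt1b level was not tested. Cpt1a, the liver form, was not raised in NASH 2 relative to the other NASH samples (9.26 against 9.21 and 9.41).

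Of 8 genes that set malonyl-CoA, the inhibitor of Cpt1a, 5 were tested, 2 higher and 3 lower in NASH, with a median difference of -0.27 and 0 called. That median rested on single arrays, at 0.03 without NASH 3, -0.66 without Control 2, -0.54 without NASH 1, -0.14 without Control 1 and -0.15 without Control 3. Acacb, the acetyl-CoA carboxylase whose malonyl-CoA acts on the shuttle, differed by -0.27 ± 0.43, within its standard error. Subunits of AMP-activated protein kinase, which inhibits the carboxylases, gave the lowest p-values of the list. Prkab1 read 6.76, 6.91 and 6.98 in Control and 6.33, 5.91 and 5.99 in NASH, without overlap, for a difference of -0.80 ± 0.20 (limma adjusted p = 0.393). Prkaa2 had a difference of -0.70 ± 0.22 (adjusted p = 0.503), also without overlap between groups. Of all tested probe sets, 7.76% had NASH values below all Control values. Prkag1 differed by 0.13 ± 0.38, and by -0.079 with no scaling between arrays.

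The genes that form and bind acyl-CoA, the substrate of the shuttle, had no common direction: of 7 tested, 3 were higher and 4 lower, with a median of -0.03 and 0 called. Leaving out 1 array put the median between -0.20 (without Control 2) and 0.13 (without Control 1). Acsl3, a long-chain acyl-CoA synthetase, differed by 1.01 ± 0.29 (limma adjusted p = 0.452), and Acsl1, the main synthetase of liver, by -0.49 ± 0.23 (adjusted p = 0.619) with D90109_at. The Acsl1 value was -0.22 without NASH 2, and the 3 other tested Acsl1 probe sets gave 0.13, 0.71 and 0.02. Slc27a2, a very-long-chain synthetase, differed by 0.55 ± 0.20, and the liver fatty acid binding protein Fabp1 by 0.26 ± 0.12, which became 0.14 without Control 2 and 0.037 with no scaling. For Acsl3 and Fabp1 the NASH values lay above all Control values (6.54% of all tested did) and for Acsl1 below them (7.76%).

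Downstream of Cpt2, 12 of 14 tested genes of matrix oxidation and ketone formation were higher in NASH and 2 lower (Acads and Echs1), with a median difference of 0.75 and 0 called among the brightest probe sets. For 10 of the 14 the NASH values lay above all Control values, against 6.54% of all tested probe sets. The lowest p-values belonged to Acaa2, the thiolase of the spiral (1.06 ± 0.16, limma adjusted p = 0.0775), Acadl, the long-chain dehydrogenase (1.00 ± 0.17, 0.112), Eci1, an isomerase for unsaturated chains (2.13 ± 0.40, 0.163), and Hadhb of the trifunctional protein (0.93 ± 0.18, 0.186). With array weights Acaa2 (adjusted p = 0.0182), Acadl (0.029) and Eci1 (0.0407) passed the limma test, and without NASH 2 Acaa2 (0.0453) and Eci1 (0.0141) did. A second Eci1 probe set, rc_AI170568_s_at, rose by 2.62 and passed the limma test (adjusted p = 0.0356), a call lost, like all others on the array, without Control 1, Control 3 or NASH 3. Another tested Eci1 probe set, rc_AA799541_at, went the other way (-0.19, adjusted p = 0.907). The shuttle median of 0.91 lay near that of this list, and no test was made between them.

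Around Crot, all 8 tested genes of the peroxisomal list were higher in NASH (7 of 8 with no scaling, where Scp2 turned lower). Their median difference was 1.25, with 0 called. Besides genes of oxidation, the 8 include the importer Abcd3 and the peroxisome division factor Pex11a. For 2 of the 8 (Ech1 and Abcd3) the groups did not overlap (6.54% of all tested on the higher side). The median was 0.83 without NASH 3. Ech1, a dienoyl-CoA isomerase, differed by 1.66 ± 0.33 (limma adjusted p = 0.198), Abcd3, a fatty acyl-CoA importer of the peroxisome, by 1.22 ± 0.43 (0.556), Ehhadh, the bifunctional enzyme, by 1.38 ± 0.53 (0.582) and Hsd17b4 by 0.64 ± 0.29 (0.619). Without NASH 2, Ech1 (2.04, adjusted p = 0.0287) and Ehhadh (2.09, 0.0234) passed the test, and Ech1 also did with array weights (0.0412). Without Control 3, the difference was 0.67 for Abcd3 and 0.33 for Hsd17b4, and a second tested Abcd3 probe set, D90038_at, gave -0.11. In centred log2 levels the list mean lay from -0.53 to -0.45 in Control, and its NASH values were 0.73, -0.23 and 0.98 for NASH 1, 2 and 3. Crot showed the same order of the NASH samples, with NASH 2 lowest for both probe sets. Without NASH 2 the Crot differences were 1.88 (U26033_at, limma adjusted p = 0.109) and 2.82 (J02844_s_at, 0.171), and without NASH 3 they were 0.98 and 1.89 (both 0.906). The summed signals of fat, muscle and hepatocyte markers in NASH 2 are those given above. The hepatocyte sum there (38491) was within the range of the other arrays, but quantile normalization keeps such sums nearly even, as stated above. Ambp, Cps1 and Otc were each lowest in NASH 2. The part of these markers in the low Crot level of that sample was not tested.

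**Figure D4:**
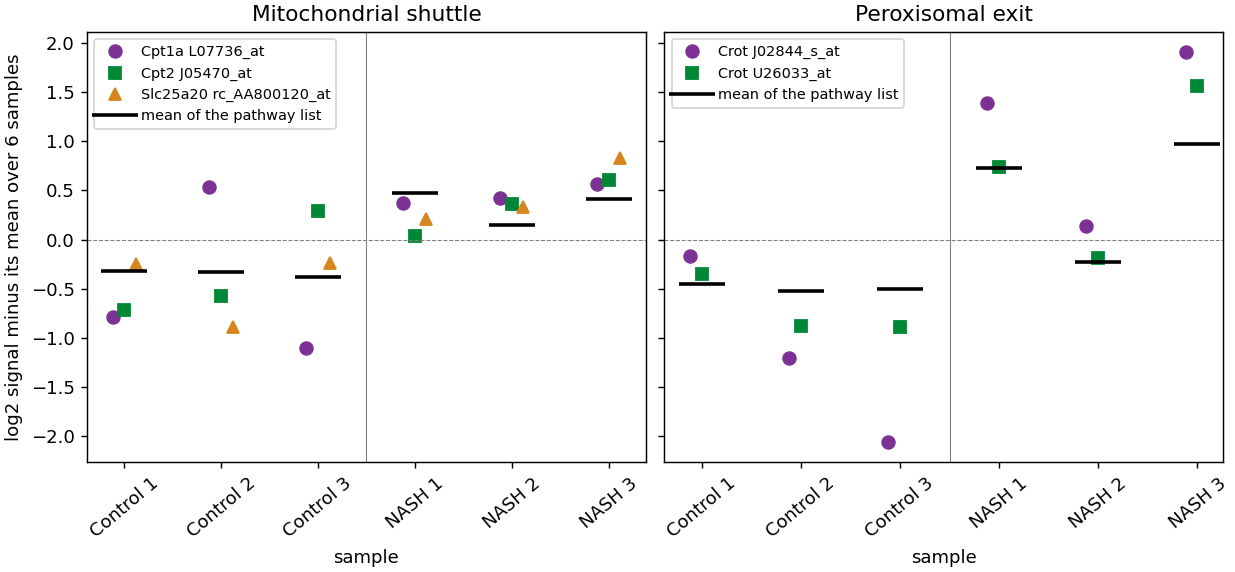
Log2 signal minus its mean over the 6 samples (vertical axis) in each sample (horizontal axis), for the mitochondrial members at left and the Crot probe sets at right. Black bars give the mean of the tested genes of the matrix list (left) and of the peroxisomal list (right). Cpt1a in Control 2 and Cpt2 in Control 3 lie above 0 while the matrix list does not, and Crot and the peroxisomal list are both lower in NASH 2 than in NASH 1 and NASH 3.

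Profiles most like each member over the 6 samples were found by the root mean square difference of centred log2 levels among the tested probe sets with 1 symbol. For Slc25a20 they were Acsl3 (0.117), the nucleolar protein Nop58 (0.132) and Hadha of the trifunctional protein (D16478_g_at, 0.161). For Crot U26033_at they were the peroxisome division factor Pex11a (AJ224120_at, 0.133), the cytochrome P450 Cyp2b2 (0.251) and Ehhadh (0.294). With AJ224120_at, Pex11a read 5.51, 5.18 and 5.20 in Control and 7.05, 5.97 and 7.68 in NASH, and so had NASH 2 as its lowest NASH sample too. The brighter Pex11a probe set, rc_AA892128_at, read 5.91, 4.49 and 6.25 in Control and 7.25, 5.65 and 7.60 in NASH. Its groups overlapped, with NASH 2 below Control 1 and Control 3. Pex11a and Ehhadh are also in the peroxisomal list above. A dimmer match to Cpt1a was the histamine receptor Hrh2 (0.186), followed by Arl1 (0.234) and the acyl-CoA synthetase Acsm3 (0.237), with the latter at 6.54 in Control 2 against 4.88 and 5.19 in the other Control samples. Cpt2 was closest to Prkce (0.169), Mycbp2 (0.179) and the chaperone Hsp90ab1 (0.18), each with Control 3 as its highest Control sample. These distances are descriptions over 6 samples that share arrays, scaling and diet.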

How the data were processed

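Per the submitters' processing notes, the authors made the deposited values with MAS5 (version, scaling target and background settings not given in the sources used here), as linear intensities, 1 per probe set and array, on the Affymetrix RG_U34A array named in the file headers. The deposited instrument records hold other information only, per the file headers (array, tissue, date fields and settings of washing and scanning). The 6 arrays were quantile normalized with limma 3.58.1 in R 4.3.3, since the deposited table had no common scale. An offset of 2.21, the 10th percentile of the deposited values, was added before log2, so fold changes of dim probe sets are understated. The 59 array controls were left out, and probe sets with a mean log2 above the 40th percentile (3.94) were tested, 5244 of 8740. Limma (lmFit, eBayes with trend, 4 residual and 3.90 prior degrees of freedom) compared NASH with Control without covariates, and adjusted p-values are Benjamini-Hochberg values over all 5244. With arrays, the number of samples limits the precision.

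Gene names came from the platform annotation (1 symbol for 7006 probe sets, several for 308, none for 1426). Promoter windows are RefSeq's. Named genes are the members, up to 4 genes with the smallest p in each of 5 pathway lists, and the 3 nearest profiles of each member. The rule for members uses no measured value, but the 4 genes, the lists, tests and alternatives were picked with earlier results of these data known. Groups come from the sample titles, since the descriptions all carry the first Control sample's text.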

Additional observations from a re-analysis of the deposited data

How the results depend on the processing

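All 5 shuttle probe sets stayed higher in NASH, and not called at an adjusted p under 0.05, in the 18 alternative fits run for each. These fits changed the scaling, the offset, the filter, the variance prior, the weights, the blocks or the arrays included. Changes of the filter, the prior or the blocks left the difference itself as it was, so they could not alter its direction. The lowest limma adjusted p was 0.0755 (Cpt1a without Control 2) and the highest 0.906. The exact permutation test, with 0.1 as its smallest p, could not have passed. At an unadjusted limma p under 0.05, array weights and the replicate block each held 5 of the 5 probe sets in place of 3. Over all 5244 probe sets, in either direction, 511 held with array weights and 412 with the replicate block, against 412 in the reported fit. The 4 arrays with a filled date record held 2 of the 5, and the count over all probe sets there is not given. The count without overlap was 2 with no scaling, where Crot U26033_at overlapped, and 3 or 4 otherwise. The share of all tested probe sets was 6.54% in the reported fit and is not given for the other settings. Same-numbered Control and NASH samples correlated at 0.05, -0.02 and 0.07 in their deviations, so the numbers were not taken to pair the samples.

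The count of probe sets called over the array was unstable. From 7 (5 higher, 2 lower) it became 14 with no scaling (8 higher, 6 lower) and 14 at an adjusted p under 0.1. It was 18 with array weights, 16 without Control 2 and NASH 2 and 3 without an intensity trend. It was 3 with the date record as a block, 1 with the replicate block and 1 on the 4 arrays with a filled one. With no filter it was 0 (633 at an unadjusted p under 0.05). Leaving out 1 array gave 0 (without Control 1, Control 3 or NASH 3) to 17 (without NASH 2). No scaling moved the median of all probe sets to -0.17, and the shuttle differences were then 0.54 to 2.15.

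Prkag1 (0.13) turned to -0.079 with no scaling and -0.30 without Control 2 and NASH 2. On the arrays with a filled date record it was -0.40. With 1 array left out Prkag1 ran from -0.33 (without Control 2) to 0.45 (without Control 3). Acacb (-0.27) was -0.72 without Control 2 and NASH 2. With 1 array left out Acacb ran from -0.66 (without Control 2) to 0.052 (without NASH 3). Calls were gained in 14 of 504 fits of the other named genes, by Acaa2, Acadl, Eci1, Ech1, Ehhadh, Pex11a and Cyp2b2, all with array weights, without NASH 2 or without Control 2 and NASH 2. The causes were not tested.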
